A study of Mus musculus with 800 samples.

Results

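Voltage-gated sodium, calcium and potassium channel genes were compared between Tomato+ and Tomato- single cells of the embryonic mouse retina. Members were found by gene symbol alone, as the sodium channel alpha and beta subunits (Scn), the calcium channel alpha-1, alpha-2-delta, beta and gamma subunits (Cacn) and all numbered potassium channel genes (Kcn). A member also needed at least 1 count in 5% of the kept cells of either label. Of 49585 gene rows, 57 matched by symbol and met this, and 75 matched but did not. Of these 75, 28 had 0 counts in the kept cells. The filter was met in both labels by 42 members, through Tomato+ cells only by 14 and through Tomato- cells only by 1 (Kcnab1). A member that entered through 1 label had to be detected in more cells there, so counts and medians over the 57 are descriptions. Just inside the limit lay Kcnmb2 (5.50% of Tomato+ and 1.93% of Tomato- cells) and Scn2b (5.81% and 3.04%). Just outside it lay Kcnj3 (3.98% and 2.76%) and Kcnip4 (3.98% and 3.31%).

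Voltage-gated channels open when the membrane is depolarised. Sodium channels carry the rising phase of the action potential, calcium channels turn electrical activity into calcium entry and transmitter release, and potassium channels repolarise the cell and set its threshold. Retinal ganglion cells (RGCs), the output neurons of the retina, acquire these channels during embryonic development, when their axons grow towards the brain, while dividing progenitors have little sodium current.

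All cells came from retinas of Sert-Cre embryos of the C57BL/6 strain, stage E15.5. In this line Cre recombinase is driven by the serotonin transporter gene, Slc6a4, which in the developing retina is known from RGCs whose axons do not cross at the optic chiasm; the Tomato reporter allele is not described in the sources used here. According to the labels, 30 retinas were pooled, dissociated with papain and sorted, and libraries were made by SmartSeq2, while the series title names C1. The labels give 400 Tomato+ and 400 Tomato- cells and name no animal, so each label is 1 pool and no test between labels was possible.

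Cells with fewer than 1000 genes or over 20% mitochondrial counts, 73 Tomato+ and 38 Tomato-, were left out. The kept Tomato+ and Tomato- cells held 86301166 and 93484125 counts in all and median totals of 271789 and 243410 counts per cell. Cell titles carry a number from 1 to 20, the title number, of which 1 to 10 are Tomato+ and the others Tomato-. Title numbers kept 24 to 38 Tomato+ and 35 to 39 Tomato- cells, and numbers 8 and 10 had the fewest kept cells and the highest median mitochondrial shares (8.16% and 7.84%). Number 8 also had the lowest median total, 188752 counts, while that of number 10 lay among the others. Title numbers are not replicates, but their range shows how far a value varied among cells of 1 label. Levels are summed counts scaled to the total of the group (CPM). Log2 ratios compare Tomato+ with Tomato- levels after 10 CPM were added to both, which makes the ratio of a low gene smaller. Pou4f1 and Pou4f2 encode transcription factors of RGCs, and cells with at least 5 counts of either are called Pou4f-positive. They made up 81.65% of the Tomato+ and 41.99% of the Tomato- cells, all but 60 and 210 of the kept cells. In the Pou4f-positive cells, the level of Slc6a4 was 109.07 CPM in the Tomato+ pool against 0.655 CPM in the Tomato- pool. At least 1 count of Slc6a4 was found in 55.1% of these Tomato+ cells and 5.92% of these Tomato- cells. Of the 210 other Tomato- cells, 17 carried amacrine or horizontal markers, 18 met neither marker rule and the rest had at least 5 counts in at least 3 progenitor markers. These progenitor-marked cells serve as the class in which neuronal channels should be low. Their median total was 219781 counts.

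The members with a log2 ratio of at least 1 or at most -1 are described below, and the promoters of 2 of them, Cacng5 and Scn2a, are shown first because they differ in base composition and in the motifs they hold. Each is the 250 bases before the RefSeq transcript start (GRCm38.p6), read 5′ to 3′ on the gene's strand, with matches to searched motifs in capitals. In the Cacng5 promoter the capitals mark a match on the other strand to a motif named below. The windows are Cacng5 (chr11:107915056-107915305, minus strand) and Scn2a (chr2:65620519-65620768, plus strand).
Cacng5: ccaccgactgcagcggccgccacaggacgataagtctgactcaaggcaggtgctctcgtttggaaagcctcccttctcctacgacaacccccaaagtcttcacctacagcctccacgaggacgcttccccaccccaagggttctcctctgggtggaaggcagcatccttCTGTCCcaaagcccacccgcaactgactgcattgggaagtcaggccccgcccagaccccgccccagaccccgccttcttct
Scn2a: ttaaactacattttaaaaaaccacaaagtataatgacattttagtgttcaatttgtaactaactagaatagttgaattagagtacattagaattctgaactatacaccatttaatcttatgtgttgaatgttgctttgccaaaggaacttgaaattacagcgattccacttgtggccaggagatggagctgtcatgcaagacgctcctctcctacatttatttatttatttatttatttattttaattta
Neither promoter holds the E-box CAGCTG, the first motif searched. The Cacng5 promoter is 62% G or C and holds 1 match to GGACAG, the second motif searched, while the Scn2a promoter holds none and is 29.6% G or C. TAATTA, a homeodomain core, was searched as well. Both strands were searched, and matches to the first motif and to the reverse of the second can share letters. Among 32851 RefSeq promoters, 13.001% held the E-box, 18.7% the second motif and 4.84% the homeodomain core. Of 57 members, 44 had a promoter entry, and 12 of these (27.3%) held the E-box, 10 (22.7%) the second motif and 0 the homeodomain core in at least 1 promoter. A gene can have several promoters, so the shares over members and over promoters have different denominators. Of the members' 68 promoters, 25% held the E-box, 17.6% the second motif and 0% the homeodomain core.

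Over all kept cells, channel genes were mostly higher in Tomato+ cells. Of the 57 members, 49 had a log2 ratio above 0, where 43.5% of the 12566 genes passing the same filter did. A log2 ratio of at least 1 was found for 10 members (17.5%), where the background was 2.52%. Among these were the sodium channel genes Scn2a, Scn3a and Scn3b and the potassium channel genes Kcnq3, Kcnc1 and Kcnh7. Cacnb1, Cacng3 and Cacng5, which carry the calcium channel name, were among them too. A log2 ratio of at most -1 was found for 1 member, Kcnk1 (1.75%), where the background was 5.83%. The members' median log2 ratio was 0.47, against -0.05 over all genes tested. In 3 members, Scn3a and Scn9a among them, every Tomato+ title number lay above every Tomato- title number, where 1.36% of all genes did so, and in 0 members the reverse held (background 2.75%). In the same cells, the summed level of 12 RGC markers was 20628 CPM in Tomato+ against 9272 CPM in Tomato- cells, with title numbers between 19136 and 22844 and between 6967 and 12846 CPM. The summed level of 8 progenitor markers was 112.05 and 4606 CPM, with title numbers between 12.6 and 528 and between 3277 and 5726 CPM. Without title numbers 8 and 10 the counts were again 10 and 1 over all kept cells, and 2 and 0 in the Pou4f-positive cells described below, though Kcnh7 then lay under 1. The part of the marker levels in the channel ratios was not tested.

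**Figure D1:**
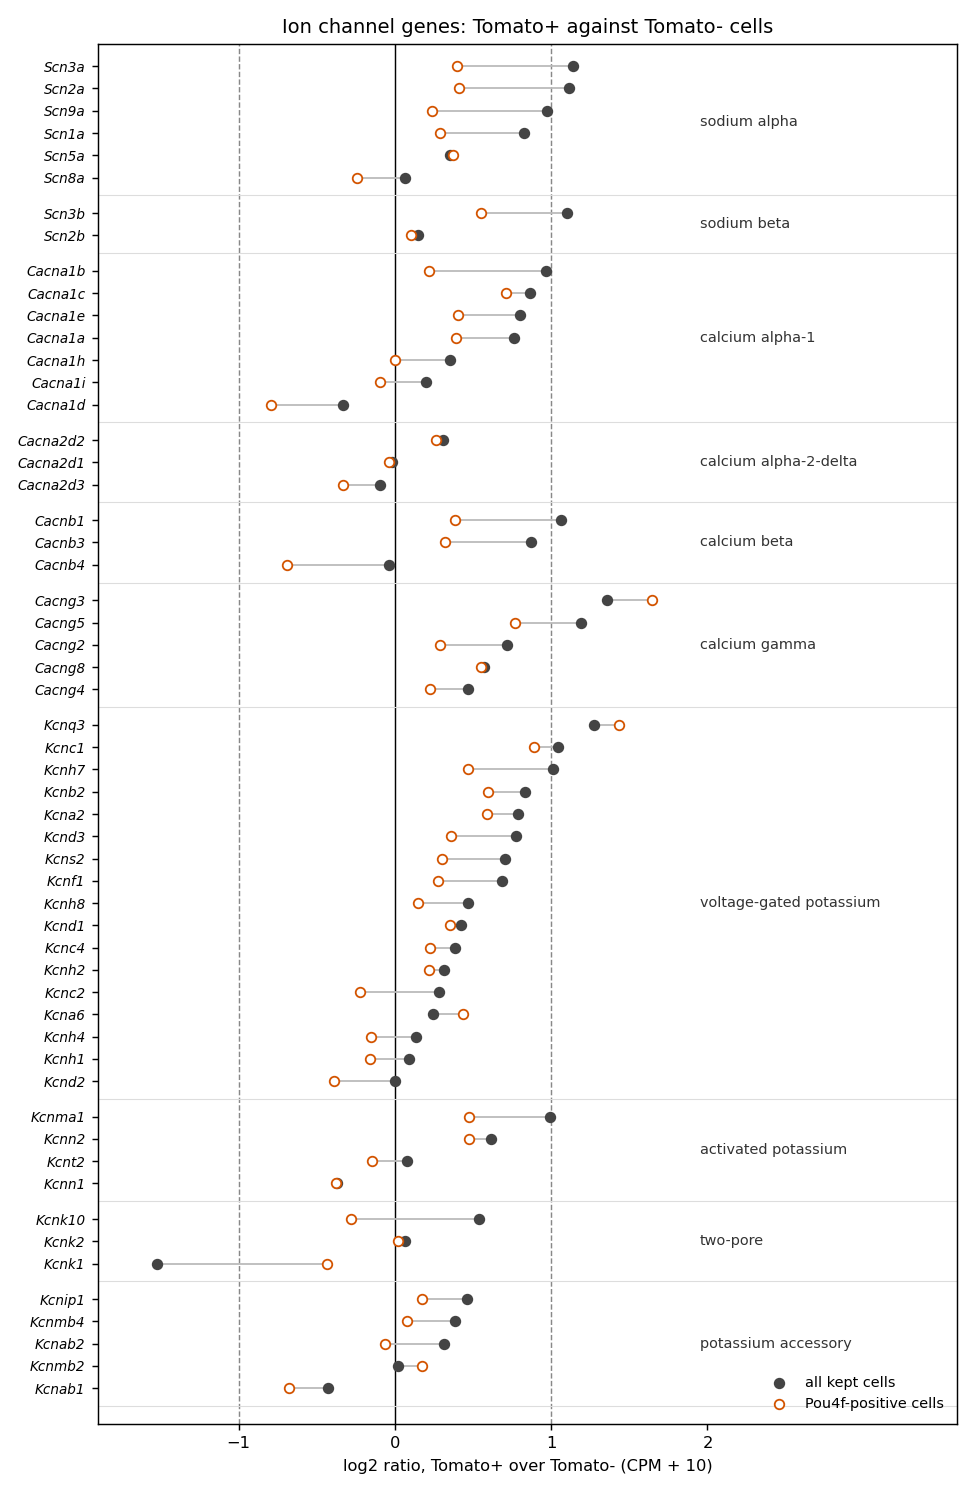
Log2 ratio of Tomato+ over Tomato- summed CPM (with 10 CPM added) for 55 of the 57 members by subfamily, over all kept cells (filled) and over Pou4f-positive cells (open), with dashed lines at -1 and 1. Most filled points lie right of 0 and most open points lie left of their filled point, while Cacng3 and Kcnq3 lie beyond 1 in both.

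Sodium channel alpha subunits form the pore. Of 10 symbols, 6 passed the filter, and all 6 had log2 ratios above 0 over all kept cells, with a median of 0.90. Scn3a, the alpha subunit known for its high level in the embryonic nervous system, ran from 205.5 to 344.1 CPM over Tomato+ title numbers, with a median of 248.8. In Tomato- title numbers it ran from 77.1 to 168.4 CPM, with a median of 107.9. The 2 ranges did not overlap. Over the pools Scn3a stood at 257.5 CPM (95% Poisson interval 254.1 to 260.9, counting error only) against 111.3 CPM (109.2 to 113.5), a log2 ratio of 1.14, where the standard deviation (SD) of log2 values between title numbers was 0.29. Scn9a, an alpha subunit best known from sensory neurons, ran from 209.4 to 310.5 CPM over Tomato+ title numbers and between 60.2 and 198.7 CPM over Tomato- ones, with medians of 257.4 and 120. Its ranges were apart as well, with a log2 ratio of 0.97 and an SD of 0.41; it is named for its ranges, after its values were seen. Scn2a, the alpha subunit of early axon initial segments and unmyelinated axons, ran from 57.9 to 117.05 CPM (median 81.4) over Tomato+ title numbers and between 7.16 and 75.7 CPM (median 28.6) over Tomato- ones. Here 8 of 10 Tomato+ title numbers lay above the highest Tomato- one, and the log2 ratio was 1.11 (SD 0.64). Scn8a, the alpha subunit that dominates mature nodes and initial segments, differed little, at 53.2 and 50.6 CPM with a log2 ratio of 0.06 (SD 0.60). Its title numbers ran from 18.3 to 101.9 CPM and from 19.7 to 115.5 CPM and overlapped almost wholly.

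The genes Scn3a, Scn2a, Scn1a and Scn9a lie in a row on chromosome 2 between 65457118 and 66635114 (GRCm38.p6). Their log2 ratios over all kept cells were 1.14, 1.11, 0.83 and 0.97. Scn8a lies on chromosome 15, from 100869863 to 101045938. Sodium beta subunits are membrane proteins that modulate the alpha subunits and bind other cells. Of 4 symbols, 2 passed. Scn3b, which is known from embryonic neurons, ran from 107.3 to 270 CPM (median 183.5) over Tomato+ title numbers and between 49.7 and 145.5 CPM (median 66.1) over Tomato- ones. In 8 of 10 Tomato+ title numbers it lay above the highest Tomato- one, with a log2 ratio of 1.10 (SD 0.41). Scn2b, a beta subunit of mature neurons, stood at 2.24 and 1.03 CPM with a log2 ratio of 0.15 (SD 0.22).

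**Figure D2:**
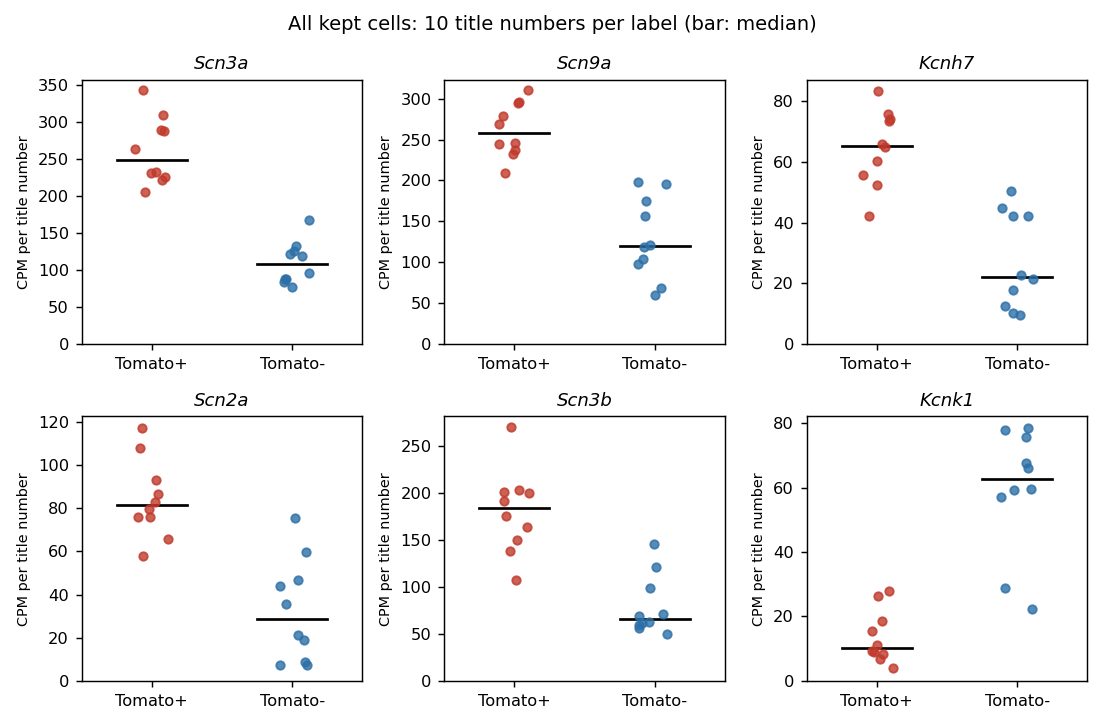
CPM of 6 channel genes in each title number over all kept cells, 10 points for each label, with bars at the medians. The Scn3a and Scn9a points of the 2 labels are apart, those of Scn2a, Scn3b and Kcnh7 overlap in part, and Kcnk1 is higher in Tomato- title numbers, with 9 of 10 above the highest Tomato+ one.

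Calcium channel alpha-1 subunits form the pore, and 7 of 10 symbols passed. None was at least 2-fold apart on this scale, and their median log2 ratio was 0.76. Cacna1b, the pore of N-type channels at presynaptic terminals, ran from 60.9 to 135.3 CPM (median 92.5) over Tomato+ title numbers and between 7.21 and 65.04 CPM (median 50.4) over Tomato- ones. All but 1 of the Tomato+ title numbers lay above the highest Tomato- one, and the log2 ratio was 0.97 (SD 0.62). Cacna1c, an L-type pore, stood at 13.5 and 2.89 CPM with a log2 ratio of 0.86 (SD 0.40), while Cacna1d, another L-type pore, stood at 19.4 and 27.03 CPM with a log2 ratio of -0.33 (SD 0.85). The alpha-2-delta subunits are extracellular proteins that bring channels to the membrane, and 3 of 4 passed. Cacna2d1 differed little, at 59.6 and 60.4 CPM (log2 ratio -0.02, SD 0.59), Cacna2d2 stood at 8.34 and 4.84 CPM (0.31, SD 0.43) and Cacna2d3 at 8.01 and 9.22 CPM (-0.09, SD 0.67). The beta subunits bind the pore inside the cell, and 3 of 4 passed. Cacnb1, best known from skeletal muscle, stood at 50.1 and 18.8 CPM (log2 ratio 1.06, SD 0.63), with 8 of 10 Tomato+ title numbers above the highest Tomato- one. Its ratio was under 1 in 2 of 30 alternatives, without title number 2 and without title number 20 (0.94). Cacnb4 differed little, at 13.1 and 13.7 CPM (-0.04, SD 0.69), and 15.99% of its exon bases overlap a gene on the other strand, A430018G15Rik. Whether counting used the strand is not given in the sources used here.

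The gamma genes carry the calcium channel name, but Cacng2, Cacng3, Cacng4, Cacng5 and Cacng8 are known as transmembrane regulators of AMPA-type glutamate receptors. These 5 of 8 symbols passed, and all had log2 ratios above 0 over all kept cells, with a median of 0.71. Cacng3 ran from 5.39 to 74.4 CPM (median 38.6) over Tomato+ title numbers and between 0 and 33.9 CPM (median 2.07) over Tomato- ones. Of the Tomato+ title numbers, 5 lay above the highest Tomato- one, and the pooled levels of 39.5 and 9.36 CPM gave a log2 ratio of 1.35 (SD 0.81). Cacng5 stood at 50.5 and 16.5 CPM (log2 ratio 1.19, SD 0.76), with 6 Tomato+ title numbers above all Tomato- ones. Cacng4, its neighbour on chromosome 11, was detected in most cells of either label and stood at 382.8 and 273.96 CPM, with a log2 ratio of 0.47 (SD 0.38) and overlapping title numbers.

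Among voltage-gated potassium channels, 19 of 40 symbols passed, and 18 of the 19 had log2 ratios above 0 over all kept cells, with a median of 0.47. Kcnq3 encodes a subunit of the M-channel, a slow current that damps repetitive firing. Kcnq3 ran from 3.34 to 45.04 CPM (median 17.8) over Tomato+ title numbers and between 0 and 13.2 CPM (median 0.569) over Tomato- ones. Here 6 Tomato+ title numbers lay above all Tomato- ones, and the pooled levels of 23.4 and 3.80 CPM gave a log2 ratio of 1.27 (SD 0.57). Kcnc1, a channel of fast-firing neurons, stood at 43.2 and 15.9 CPM (log2 ratio 1.04, SD 0.68). Kcnh7, of the ether-a-go-go-related family, stood at 63.8 and 26.5 CPM (1.01, SD 0.48), with 9 of 10 Tomato+ title numbers above all Tomato- ones. Both ratios lie at the limit of 1: that of Kcnc1 was under it in 7 of 30 alternatives and that of Kcnh7 in 11 of 30. Kcnd3, an A-type channel, stood at 104.1 and 56.6 CPM (0.78, SD 0.56).

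Of the calcium- or sodium-activated potassium channels, 4 of 8 symbols passed. Kcnma1, the large-conductance channel opened by calcium and voltage, stood at 50.3 and 20.3 CPM (log2 ratio 0.99, SD 0.80), and Kcnn1, a small-conductance channel, at 8.97 and 14.6 CPM (-0.37, SD 0.67). Of the accessory genes, 5 of 15 passed, with log2 ratios from -0.43 for Kcnab1, a cytoplasmic beta subunit, to 0.46 for Kcnip1, a calcium-binding partner of A-type channels. Two-pore channels carry the leak current that sets the resting potential, and 3 of 14 symbols passed. Kcnk10, a mechanically gated leak channel, stood at 35.9 and 21.7 CPM (0.54, SD 0.63), and Kcnk2, of the same kind, at 3.64 and 3.07 CPM (0.06, SD 0.44). Of the 15 inward rectifiers (Kcnj), 0 passed.

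Kcnk1, a weakly conducting two-pore channel, was the 1 member lower by the limit in Tomato+ cells. It ran from 4.14 to 27.9 CPM (median 10.2) over Tomato+ title numbers and between 22.3 and 78.4 CPM (median 62.8) over Tomato- ones, and 9 of 10 Tomato- title numbers lay above the highest Tomato+ one. The pooled levels were 14.1 and 59.2 CPM, a log2 ratio of -1.52 (SD 0.49). Its level in the Tomato- progenitor-marked cells was 111.4 CPM, and 24.6% of them (95% exact binomial interval 18.4 to 31.6) had at least 5 counts. In Pou4f-positive cells it stood at 14.3 CPM in Tomato+ against 22.8 CPM in Tomato- cells. Of its exon bases, 8.01% overlap a gene on the other strand, Gm45875.

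Within Pou4f-positive cells the labels lay closer together. A log2 ratio of at least 1 remained for 2 of 57 members, Cacng3 and Kcnq3 (3.51%), where the background was 0.923%. A ratio of at most -1 was found for 0 members (background 2.3%). The members' median log2 ratio was 0.24, against -0.03 over all genes, and 39 members lay above 0, where 44.7% of all genes did. For 11 members, all higher in Tomato+ cells, the ratio was larger than the SD between title numbers, where 6.61% of all genes were higher and 8.58% lower by more than this SD. In 0 members did the title numbers of the labels not overlap (background 0.191% higher and 0.0398% lower). Title numbers here held 15 to 32 Tomato+ and 12 to 24 Tomato- cells, fewer than over all kept cells, and fewer cells widen a range. The summed RGC markers stood at 20789 CPM in Tomato+ against 15848 CPM in Tomato- Pou4f-positive cells, with title numbers between 18896 and 22885 and between 10756 and 21288 CPM. Of the 12 markers, 8 had log2 ratios above 0, with a median of 0.35, and abundant genes such as Sncg (6682 and 4328 CPM) and Nefm (2759 and 1696 CPM) weigh most in the sum. The other 4 were higher in Tomato- cells: Pou4f1 (145.7 and 234.4 CPM), Pou4f2, Isl1 (819 and 1238 CPM) and Elavl4. The summed progenitor markers stood at 58.2 and 1387 CPM, with 0 of 8 markers at 0 and title numbers between 13.4 and 273.2 and between 239.3 and 3096 CPM. Progenitor markers at the level defined above were carried by 60 Tomato- and 2 Tomato+ Pou4f-positive cells.

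The comparison was therefore also made without those cells, a choice made after the data had been seen, which left 92 Tomato- cells. The summed progenitor markers then stood at 30.5 and 130.5 CPM. Cacng3 and Kcnq3 were again the members with a log2 ratio of at least 1 (background 1.23%), and 0 members had a ratio of at most -1 (background 1.15%). The members' median was 0.08, against -0.01 over all genes. For 5 members (Cacna1c, Kcnf1, Kcnq3, Kcnc1 and Cacng3) the ratio was larger than the SD between title numbers, all higher in Tomato+ cells (background 6.57% higher and 3.45% lower). Title numbers overlapped in all 57 (background 0.175% and 0.0239% without overlap). Of the sodium channels, Scn2a went from a log2 ratio of 1.11 over all kept cells to 0.41 in Pou4f-positive cells and 0.03 without progenitor markers. Scn3a went from 1.14 to 0.40 and 0.23, and Scn9a from 0.97 to 0.24 and -0.02. Kcnk1 went from -1.52 to -0.43 and 0.26. These 3 comparisons share cells.

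Cacng3, of the gamma genes known as regulators of AMPA-type glutamate receptors, had the highest ratio of all members in Pou4f-positive cells. It ran from 0.701 to 74.9 CPM (median 40.5) in Tomato+ title numbers. In Tomato- title numbers the median was 0 CPM and the highest, title number 18, stood at 46.5 CPM. In 4 Tomato+ title numbers it lay above all Tomato- ones, so the ranges overlapped. The pooled levels of 40.3 CPM (38.8 to 41.7) and 6.11 CPM (5.42 to 6.85) gave a log2 ratio of 1.64 (SD 0.83), which was 2.26 without title number 18 and 1.39 without the cells with progenitor markers. At least 5 counts were found in 19.1% (14.6 to 24.3) of the Tomato+ and 2.63% (0.722 to 6.60) of the Tomato- Pou4f-positive cells, which were 51 and 4 cells, with median totals of 279850 and 319257 counts. Of all Cacng3 counts, the 5 highest cells held 98.3% in the Tomato- and 34.2% in the Tomato+ pool. The share in Tomato- progenitor-marked cells was 1.14% (0.139 to 4.07), and the Tomato- interval reaches below it.

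Kcnq3 ran from 4.55 to 52.1 CPM (median 21.5) in Tomato+ Pou4f-positive title numbers. In Tomato- ones it had a median of 0.506 CPM and its highest value, 23.5 CPM, in title number 14. In 5 Tomato+ title numbers it lay above all Tomato- ones. The pooled levels of 26.6 CPM (25.4 to 27.8) and 3.55 CPM (3.03 to 4.13) gave a log2 ratio of 1.43 (SD 0.60), which was 1.77 without title number 14 and 1.24 without the cells with progenitor markers. At least 5 counts were found in 14.98% (10.9 to 19.8) of the Tomato+ and 2.63% (0.722 to 6.60) of the Tomato- Pou4f-positive cells. In progenitor-marked cells the share was 0.571% (0.0145 to 3.14).

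**Figure D3:**
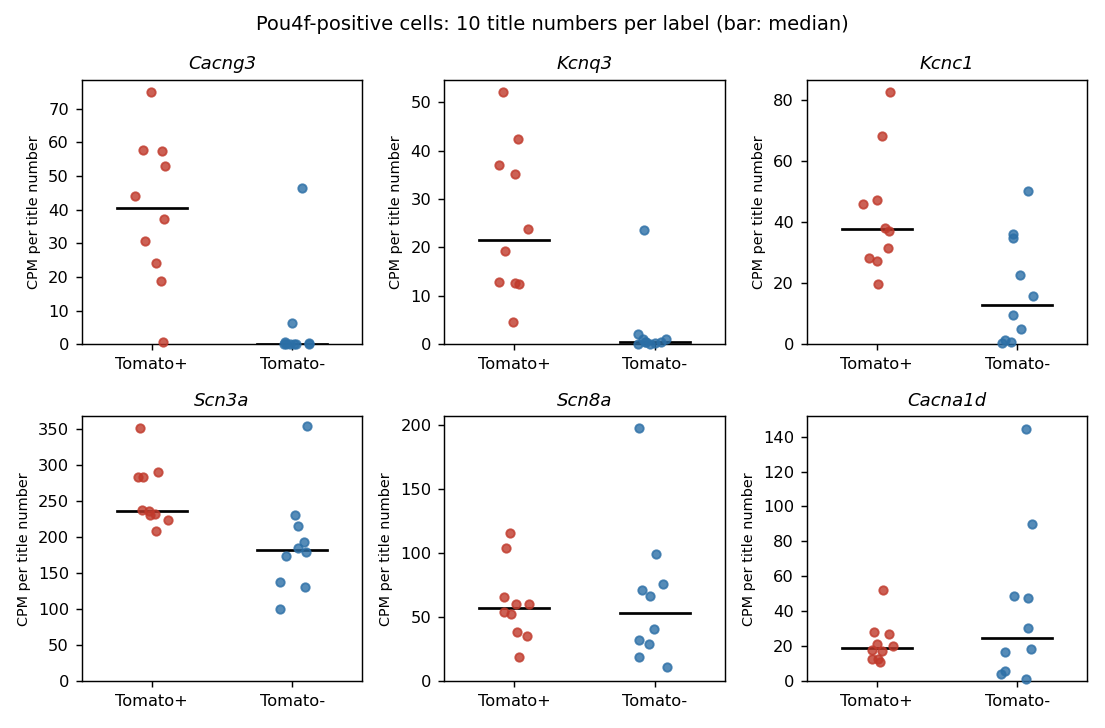
CPM of 6 channel genes in each title number over Pou4f-positive cells, 10 points for each label, with bars at the medians. Cacng3 and Kcnq3 are near 0 in most Tomato- title numbers with 1 high point each (46.5 and 23.5 CPM), and the points of the 2 labels overlap in every panel.

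Among the other members that exceeded the SD between title numbers in Pou4f-positive cells were Scn3b (log2 ratio 0.55, SD 0.45), Cacna1c (0.71, SD 0.45), Kcnc1 (0.89, SD 0.76), Cacng8, Kcnn2, Kcnc4 and Kcna6, besides Scn3a. Kcnc4 entered the list through Tomato+ cells only (6.12% against 1.93%) and reached at most 4.45 CPM in a title number. Cacng8, Kcnn2 and Kcna6 reached at most 20.98, 19.3 and 25.2 CPM. With 10 CPM added, ratio and SD of such low genes are both small, so exceeding the SD says little for them. Scn3a lay between 209.1 and 351.97 CPM (median 236.6) over Tomato+ title numbers and between 100.15 and 355.02 CPM (median 181.7) over Tomato- ones. The highest of all these values was thus a Tomato- one, and the log2 ratio was 0.40 (SD 0.37). Kcnc1 stood at 44.4 and 19.3 CPM and reached 5 counts in 25.1% of Tomato+ cells (20.01 to 30.7), against 9.87% of Tomato- cells (5.63 to 15.8). For Kcna6, 39.6% of exon bases overlap Gm26673 on the other strand. The lowest ratios were those of Cacna1d at -0.79 (SD 0.94), Cacnb4 at -0.69 (SD 0.91) and Kcnab1 at -0.68 (SD 0.77), each within the SD between title numbers. Cacna1d ran from 11.04 to 51.9 CPM over Tomato+ title numbers and between 1.18 and 144.4 CPM over Tomato- ones. Scn8a had a ratio of -0.24 (SD 0.83).

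**Figure D4:**
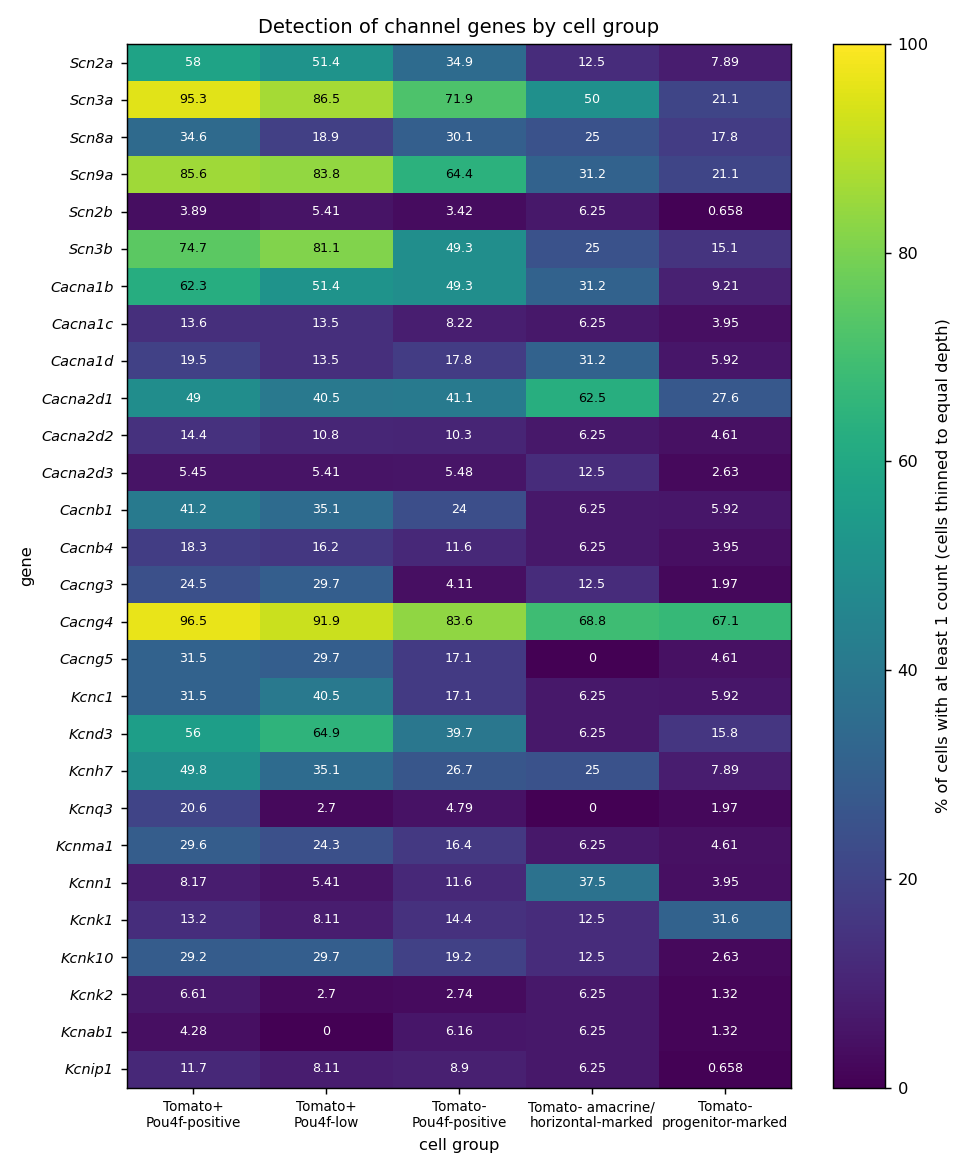
Share of cells with at least 1 count of 28 channel genes in 5 cell groups, each cell thinned to 94783 counts. Scn3a, Scn9a and Scn3b have their highest shares in the 2 Tomato+ groups and at most 21.1% in Tomato- progenitor-marked cells, Cacng4 is found in at least 67.1% of every group, and Kcnk1 has its highest share in progenitor-marked cells (31.6%).

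Shares of cells at equal depth gave each gene's spread over cell groups. With every cell thinned to 94783 counts, Scn3a was detected in 95.3% of Tomato+ Pou4f-positive, 71.9% of Tomato- Pou4f-positive and 21.1% of Tomato- progenitor-marked cells. Before thinning these shares were 97.004%, 78.9% and 37.7%. Scn9a was detected in 85.6%, 64.4% and 21.1%. Cacng4 was found in 96.5%, 83.6% and 67.1%, so that it was common in progenitor-marked cells too. The 60 Tomato+ cells that were not Pou4f-positive, of which 37 were deep enough, were close to the Pou4f-positive ones for Scn3a (86.5%) and Scn9a (83.8%), and Kcnq3 was found in 2.70% of them against 20.6%. In the 16 Tomato- amacrine- or horizontal-marked cells deep enough to thin, Scn3a was detected in 50% and Cacng5 in 0 cells.

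The number of members detected per cell was counted at the same depth. A Tomato+ Pou4f-positive cell had a median of 16 of the 57 (quartiles 13 to 19). A Tomato- Pou4f-positive cell had 11 (7 to 15), or 12 (8 to 16) without progenitor markers, and a progenitor-marked cell 4 (3 to 6). Cells too shallow to count were 10, 6 and 23 in the 3 groups. Medians of single title numbers lay between 14.5 and 17.5 in Tomato+ and between 7 and 15 in Tomato- Pou4f-positive cells and overlapped. Over all kept cells they ran from 14 to 17 and from 5 to 7.5, without overlap. Since 14 members entered the list through Tomato+ cells only and 1 through Tomato- cells only, this count is a description. The number of all genes detected per cell, without thinning, also differed. Its median was 4597 in Tomato+ Pou4f-positive, 4312.5 in Tomato- Pou4f-positive and 3479 in progenitor-marked cells. Over all kept cells it was 4550 in Tomato+ and 3755.5 in Tomato- cells. The part of this difference in the channel counts was not tested.

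**Figure D5:**
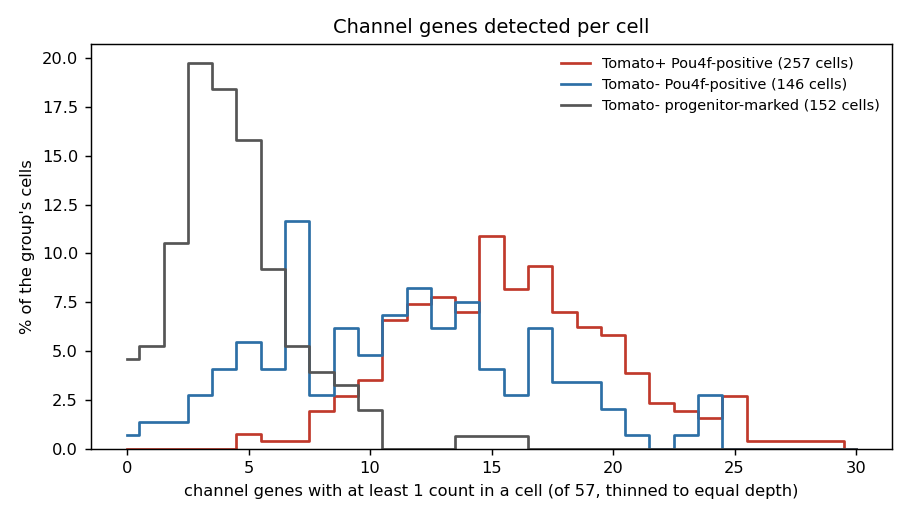
Number of the 57 members with at least 1 count in a cell (x axis) against the percentage of the group's cells (y axis), with cells thinned to equal depth. Progenitor-marked cells peak low (median 4), Tomato- Pou4f-positive cells spread widely (median 11) and Tomato+ Pou4f-positive cells centre on 16.

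Pairs of members were counted within single cells, with at least 5 counts of each. In Tomato+ Pou4f-positive cells, Scn3a and Scn9a were found together in 83.1% of the cells with Scn3a and 89.9% of those with Scn9a. Over all these Tomato+ cells Scn9a was found in 81.6% and Scn3a in 88.4%, so each was about as common in cells with the other. Such high shares leave little room for a difference. In Tomato- Pou4f-positive cells, Scn9a was found in 72.7% of the cells with Scn3a, against 53.9% of all. Scn3a was found there in 87.8% of the cells with Scn9a, against 65.1% of all. These differences were not tested. Cacng3 and Kcnq3, the members with the largest ratios in Pou4f-positive cells, were found together in 9 Tomato+ cells, 17.6% of the 51 with Cacng3 and 22.5% of the 40 with Kcnq3. Their shares over all Tomato+ Pou4f-positive cells, 14.98% for Kcnq3 and 19.1% for Cacng3, were somewhat lower than these, a difference that was not tested. In Tomato- Pou4f-positive cells they were together in 0 cells, with 4 cells for each.

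Genes that work with these channels but lie outside the naming rule were taken as a list of 26, of which 24 passed the filter. Over all kept cells 4 had a log2 ratio of at least 1 (16.7%, background 2.52%) and 1 of at most -1 (4.17%, background 5.83%), with a median of 0.33. Cntnap2, which clusters potassium channels along the axon, stood at 276.9 and 86.2 CPM (1.58, SD 0.53), with title numbers from 198.4 to 372.9 CPM and from 29.9 to 154.1 CPM that did not overlap. Ank2, an axonal ankyrin, stood at 1963 and 942 CPM (1.05, SD 0.21) and did not overlap either. Fgf12, which binds sodium channels inside the cell, had a ratio of 1.40 (SD 0.82), and Fam155a, a subunit of the sodium leak channel complex, of 1.36 (SD 0.56). Rest, a repressor of neuronal genes that include sodium channels, stood at 10.1 and 42.1 CPM (-1.38, SD 0.60). In Pou4f-positive cells Rest stood at 10.1 and 12.2 CPM (-0.15, SD 0.63). There 1 of the 24 had a ratio of at least 1 (4.17%, background 0.923%) and 0 of at most -1 (background 2.3%), with a median of 0.11. That gene was Cntnap2, at 272.7 and 124.3 CPM (1.07, SD 0.56), and its ratio was 1.02 without the cells with progenitor markers. Ank3, which anchors sodium channels at the initial segment, had a ratio of 0.39 over all kept cells and 0.06 in Pou4f-positive cells (SD 0.24 and 0.34).

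Markers of other cells were summed beside these results in Pou4f-positive cells. The 4 erythroid genes stood at 1263 CPM in Tomato+ against 2.54 CPM in Tomato- cells, with Tomato+ title numbers from 1.76 to 9532 CPM. Leaving out cells with at least 100 counts of Hbb-y left 2 members with a ratio of at least 1 and 0 of at most -1. The 4 microglial markers stood at 0.693 and 1.90 CPM. The 4 endothelial markers stood at 6.69 and 40.7 CPM, of which Kdr alone made up 4.48 and 40.3 CPM. Kdr stood higher, at 133.1 CPM, in the Tomato- progenitor-marked cells, while Pecam1 stood at 2.16 and 0.296 CPM and Cdh5 at 0 in both. The 5 photoreceptor markers stood at 33.7 and 110 CPM, with 1 of 5 log2 ratios above 0 (Crx) and Rcvrn at 0. The 8 amacrine or horizontal markers summed to 587 and 458 CPM, but 1 of 8 log2 ratios was above 0 and their median was -0.63. That marker, Onecut2, stood at 564.7 and 353.8 CPM, while the other 7 were lower in Tomato+ cells, such as Tfap2b (7.25 and 21.2 CPM) and Prox1 (7.76 and 43.5 CPM). The 6 neurogenic precursor markers stood at 113.1 and 477 CPM, with 0 of 6 log2 ratios above 0. The part of these cells in the channel ratios was not tested.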

How the data were processed

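Single-cell libraries of sorted embryonic retinal cells were analysed from the deposited table of whole-number counts per gene and cell, which the authors did not normalise. The submitters' processing notes name Seurat 2.3, R 3.4.4 and mm10; the aligner, the counting tool, the annotation, and whether counts are reads or unique molecules are not given in the sources used here. The table holds 801 columns, and 1 that belongs to no labelled cell was left aside; 0 columns were identical. The 93 repeated gene rows stayed in totals only.

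Kept cells had 1000 or more genes and no more than 20% mitochondrial counts. Counts were summed per label and scaled to CPM with Python 3.11.15, numpy 2.4.6, scipy 1.17.1 and pandas 2.3.3. No animal is named per cell, so no p-value was computed. Ratios of at least 1 or at most -1 (log2, 10 CPM added) are listed as higher or lower. Intervals are exact at 95% and cover counting error only. Poisson intervals treat each count as independent, so they are too narrow if the counts are amplified reads. The summing and ratio steps were tested on simulated data. Cells were thinned to 94783 counts, the 10th percentile of totals, leaving out 33 Tomato+ and 36 Tomato- cells. Alternative scalings used edgeR 4.0.16 and DESeq2 1.42.0 (R 4.3.3) on the 2 pooled sums; these raised log2 ratios of CPM without a pseudocount by 0.12 and 0.14 over all kept cells and 0.080 and 0.081 in Pou4f-positive cells. Other alternatives changed the pseudocount, the filters, the Pou4f limit, the title numbers kept and the weight of the rows named in the titles.

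Named genes are the highest and lowest ratio of each subfamily in either comparison, every member past the limit, and up to 4 members nearest 0 with at least 50 CPM in both labels; further genes are named for counts of 5 or fewer or for their ranges. The values of 2 members and 1 promoter are not reported here, though counts and medians take those members in. The members and lists were chosen with earlier results of these data known. Exon overlaps come from GENCODE M21, and gene positions and promoters from RefSeq, all on GRCm38.p6. No sequence from chromosome 18 was used.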

Additional observations from a re-analysis of the deposited data

How the results depend on the processing

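None of the members past the limit of 1 changed sign under an alternative, and Cacng3 and Kcnq3 stayed past it under every alternative run in both comparisons. Counts of members moved with the settings. With a pseudocount of 1 CPM, 25 of 57 members were higher and 2 lower over all kept cells, where 7.64% and 12.8% of the 12566 genes tested were, with a median log2 ratio of 0.83 for the members. In Pou4f-positive cells 8 were higher and 3 lower (5.67% and 8.55% of all genes), with a median of 0.39. With each cell weighted equally, 19 were higher over all kept cells (4.26% of all genes), and the Pou4f-positive median was 0.37. With cells thinned to equal depth, 17 were higher over all kept cells (3.69% of all genes). Median-of-ratios scaling gave a median of 0.57 over all kept cells. With members detected in 10% of cells the median over all kept cells was 0.71 and with no detection filter it was 0.18, and in Pou4f-positive cells it was 0.079 with no filter; fewer or more genes entered these medians. With 1 Pou4f count in place of 5, 1 member was lower (4.70% of all genes) and the median was 0.41. Without cells with progenitor markers the Pou4f-positive median was 0.076. The cause of these shifts was not tested.

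Leaving out each title number in turn gave 7 to 13 members higher and 1 lower over all kept cells, with medians from 0.42 to 0.53. In Pou4f-positive cells it gave 2 to 3 higher and 0 lower, with medians from 0.20 to 0.30. The titles also name a row, and each of the 40 rows holds cells of both labels; what a row is, the labels do not say. As a replicate block, chosen after the data had been seen, rows were weighted equally. This gave 13 members higher and 1 lower over all kept cells (2.76% and 6.06% of all genes), with a median of 0.48, and 3 higher and 0 lower in Pou4f-positive cells (1.48% and 3.02%), with a median of 0.30. The 2 labels' deviations from their means were correlated over genes within a row. These correlations ranged from -0.07 to 0.04 over all kept cells and from -0.03 to 0.05 in Pou4f-positive cells, over 0.1 in 0 rows. A row holds few cells of each label, so low correlations cannot decide whether its cells share more than the number. Depth limits low genes: a member with few counts per cell can be missed in a cell, and 33 Tomato+ and 36 Tomato- cells were too shallow for the thinned values.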
